A study of Mus musculus with 8 samples.

Results

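Dntt, Flt3, Satb1, Il7r, Notch1, Rag1, Rag2, Ebf1, Ikzf1 and Lsp1 are the lymphoid priming genes described here, 10 of the 32285 genes counted in each library. They were listed by name as genes of early lymphoid specification, and their raw UMIs (unique molecular identifiers, 1 per captured RNA molecule) were read in every cell of all 8 libraries. The list was made with earlier results of these data known, so counts of its genes set beside shares of all genes are descriptions, not tests. The libraries hold Lineage- c-Kit+ bone marrow cells, a gate that takes stem and progenitor cells without mature lineage markers, from wild-type mice profiled on the 10x Chromium platform. Each library came from 1 mouse. Young mice were 14 weeks old, middle-aged mice 50 weeks, old mice 78 weeks (male) or 79 weeks (female), and very old mice 95 weeks, with 1 male and 1 female at each age and no treatment. By their names the 2 very old libraries belong to a separate series, and its effect cannot be told apart from that of being 95 weeks old. Of 59465 barcodes, 59136 cells with at least 200 genes were kept, and the libraries held between 83062003 and 150135029 UMIs. A total of 467 barcodes occurred in 2 or more libraries.

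Lymphoid priming is the low expression of lymphoid genes in multipotent cells before they enter a lymphoid lineage. In mouse bone marrow it is best known from lymphoid-primed multipotent progenitors, which carry the receptor tyrosine kinase Flt3 on their surface and switch on Dntt and the recombinase genes before the interleukin-7 receptor drives the first committed lymphoid stages. Ikaros, encoded by Ikzf1, and the chromatin organiser Satb1 act early in this program, Notch1 directs cells towards the T lineage, and Ebf1 commits cells to the B lineage.

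Dntt encodes terminal deoxynucleotidyl transferase, the enzyme that adds bases without a template at the joints of rearranged antigen receptor genes. It lies at chr19:41029275-41059525 on the plus strand of GRCm38. Flt3, the receptor for FLT3 ligand, lies at chr5:147330741-147400489 on the minus strand. The 250 bases before the start of both genes are shown because the results turn on these genes. Dntt is the member most concentrated in multipotent progenitor-like cells, and Flt3 had the largest difference with age in stem cell-like cells among those fitted. Sequences are from RefSeq (GRCm38.p6), read 5′ to 3′ on the strand of the gene, at chr19:41029025-41029274 for Dntt and chr5:147400490-147400739 for Flt3. Capitals mark every CANNTG, the E-box letters that E proteins such as E2A can bind. CANNTG reads the same on both strands.
Dntt: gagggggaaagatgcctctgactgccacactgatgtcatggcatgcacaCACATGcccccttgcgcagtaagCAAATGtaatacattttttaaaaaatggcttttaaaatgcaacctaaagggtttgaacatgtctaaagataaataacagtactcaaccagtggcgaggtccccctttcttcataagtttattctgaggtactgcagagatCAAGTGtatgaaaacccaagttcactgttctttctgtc
Flt3: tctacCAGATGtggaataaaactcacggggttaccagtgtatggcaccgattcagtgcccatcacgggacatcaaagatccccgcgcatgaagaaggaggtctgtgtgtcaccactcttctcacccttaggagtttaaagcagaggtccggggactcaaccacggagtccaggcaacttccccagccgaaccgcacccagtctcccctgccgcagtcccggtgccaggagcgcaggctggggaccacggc
The Dntt window held 3 matches and the Flt3 window 1. Of 32851 mouse promoter windows of this length, 66.2% held at least 1 match and 12.2% held at least 3. The GC content was 41.6% for Dntt and 59.2% for Flt3. A promoter window was found for 9 of the 10 genes. The Il7r and Rag1 windows also held 3 matches each, the Notch1 window held 0, and a match is a description of letters, not of a bound site.

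The other members lie on GRCm38 at chr17:51736187-51833290 (Satb1, minus strand), chr15:9505788-9530176 (Il7r, minus), chr2:26457903-26516663 (Notch1, minus), chr2:101638282-101649501 (Rag1, minus), chr2:101624718-101632529 (Rag2, plus), chr11:44617317-45008091 (Ebf1, plus), chr11:11685003-11772926 (Ikzf1, plus) and chr7:142460809-142494867 (Lsp1, plus). Rag1 and Rag2 are neighbours and encode the 2 parts of the recombinase that cuts antigen receptor genes. Lsp1 encodes an actin-binding protein of leukocytes.

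Cells were clustered without the 10 genes, so that the genes themselves did not set the classes, and clusters were named from marker genes that include none of them. A group of 9785 cells, 16.5% of all cells, was named MPP-like (multipotent progenitor-like), and 3029 cells were named HSC-like (haematopoietic stem cell-like). The MPP-like class joins a cluster of 6189 cells and one of 3596 cells with few UMIs, whose leading genes include Malat1 and mitochondrial genes. To compare shares of cells across depths, each cell was thinned to 4500 UMIs and shallower cells were left out, which kept 6351 MPP-like and 2871 HSC-like cells. Median depth before thinning was 6217 to 9979.5 UMIs a cell in MPP-like cells, 6742 to 10067.5 in HSC-like cells and 14817 to 35623 in erythroid-like cells.

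A Dntt UMI was found in 25.7% ± 5.23 of MPP-like cells (SD, n = 8 mice), against 1.44% ± 1.55 of HSC-like cells. Without thinning the shares were 25.1% and 2.24% over all cells of the 2 classes. Erythroid-like cells, which should lack Dntt, gave 1.02% ± 0.583 at the same thinned depth, so free RNA could give a share of that size. They were deeper before thinning, so the share from free RNA need not be the same in shallower classes. The shallower erythroid-megakaryocyte precursor-like cells gave 1.33% ± 0.837. The mean HSC-like share lay close to both but joins unlike ages. By age it was 4.75% and 2.17% in the young male and female and 2.03% and 0.946% in the middle-aged. In old and very old mice it was 0 to 0.915%, and the highest erythroid-like mouse was at 2.01%. Of the 34667 Dntt UMIs in the 8 libraries, 58.8% lay in MPP-like cells. Most of the rest lay in unnamed clusters. One of these, 2770 cells led by cell-cycle genes and called the cycling cluster here, had a Dntt UMI in 16.8% ± 2.55 of cells.

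Flt3 and Satb1 were spread more widely than Dntt. A Flt3 UMI was found in 37.7% ± 7.88 of MPP-like cells, 23.0% ± 3.15 of the cycling cluster, 11.04% ± 12.8 of HSC-like cells and 0.888% ± 0.376 of erythroid-like cells. The SD in HSC-like cells exceeded the mean because of the age difference described further on. An unnamed cluster of 561 cells led by MHC class II genes had a Flt3 UMI in 42.1% ± 5.43 of cells and a Dntt UMI in 0.643% ± 0.776. Satb1 was found in 29.0% ± 6.01 of MPP-like cells, in 5.21% ± 4.54 of HSC-like cells and in 1.16% ± 0.552 of erythroid-like cells. In erythroid-megakaryocyte precursor-like cells it was found in 3.40% ± 1.23.

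The genes of committed lymphoid cells were rare in this gate. Il7r, the receptor chain that takes the interleukin-7 signal, had a UMI in 1.81% ± 0.886 of MPP-like cells, and 40.9% of its 1308 UMIs lay there. A further 18.8% of the Il7r UMIs lay in 77 cells named T, NK or innate lymphoid-like, of which 55.8% had an Il7r UMI without thinning. Rag1 was found in 0.243% ± 0.223 of MPP-like cells, with 92 UMIs in all 8 libraries. Rag2 had a UMI in 1.20% ± 0.736 of MPP-like cells. Ebf1 reached 0.299% ± 0.305. Erythroid-like shares of these 4 genes were between 0.00350% and 0.0326%.

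Ikzf1, Lsp1 and Notch1 were found in several classes. Ikzf1 had a UMI in 31.2% ± 3.94 of MPP-like cells and in 36.5% ± 1.31 of erythroid-like cells, and 47.3% of its 69195 UMIs lay in the erythroid-like class. Lsp1 was found in 37.7% ± 5.45 of MPP-like cells, 31.6% ± 9.48 of HSC-like cells and 97.6% ± 1.15 of the cluster with MHC class II genes, against 1.18% ± 0.477 of erythroid-like cells. MPP-like cells held 27.9% of the Lsp1 UMIs. Notch1, with 27.4% of its UMIs in MPP-like cells, was found in 13.05% ± 3.71 of MPP-like, 8.54% ± 1.78 of HSC-like and 0.689% ± 0.248 of erythroid-like cells.

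**Figure D1:**
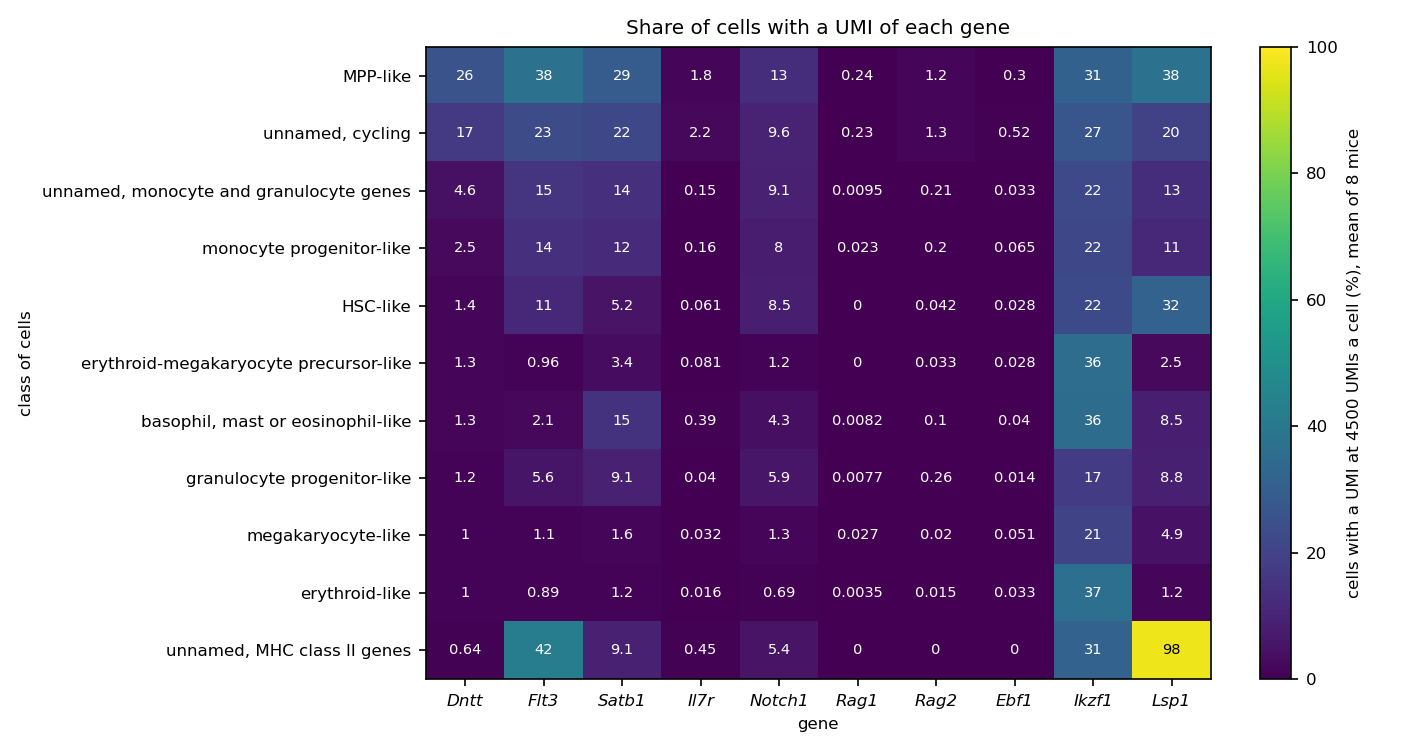
Heat map of the share of cells (%, after thinning to 4500 UMIs a cell, mean of 8 mice) with a UMI of each gene (columns) in each class of cells (rows). Dntt stands out in MPP-like cells (25.7%) and the cycling cluster (16.8%), Ikzf1 is found in all classes, and Lsp1 is found in 97.6% of the cluster with MHC class II genes.

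Within MPP-like cells the lymphoid genes were found in the same cells. Among cells with a Dntt UMI, a Flt3 UMI was found in 63.8% ± 7.17, against 28.6% ± 6.42 of cells without one, with a difference of 33.3 to 38.9 percentage points in the 8 mice. Satb1 was found in 52.2% ± 6.36 of cells with a Dntt UMI, 26.8 to 36.6 percentage points above the cells without one. The differences were in the same direction for Notch1 (25.2% against 8.78%), Ikzf1 (41.2% against 27.8%), Lsp1 (52.4% against 32.5%), Rag2 (3.41% against 0.368%) and Il7r (6.14% against 0.221%), in 8 of 8 mice each. Kit, the stem cell factor receptor, went the other way, at 35.9% ± 3.67 of cells with a Dntt UMI and 48.2% ± 3.82 of cells without, lower in 8 of 8 mice. Mpo, the neutrophil enzyme myeloperoxidase, was found in 57.6% ± 10.2 of cells with a Dntt UMI and 63.7% ± 13.1 of cells without. These are descriptions across cells, and cells of a mouse are not replicates.

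**Figure D2:**
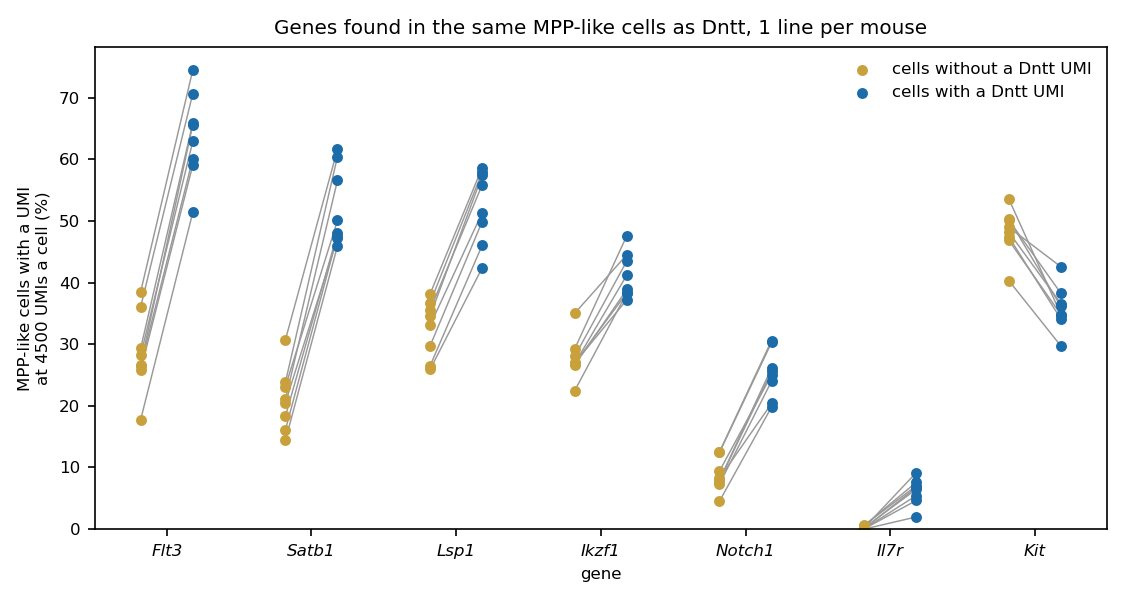
Share of MPP-like cells (%, at 4500 UMIs a cell) with a UMI of each gene on the horizontal axis, in cells without and with a Dntt UMI, with 1 pair of points and 1 line per mouse. Flt3, Satb1, Lsp1, Ikzf1, Notch1 and Il7r were higher and Kit was lower in cells with a Dntt UMI in all 8 mice.

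When clusters were made finer, 1486 MPP-like cells formed a subcluster that held 77.2% of the Dntt UMIs of MPP-like cells and 45.4% of those of all cells. In it 71.2% had a Dntt UMI, 66.9% a Flt3 UMI, 55.5% a Satb1 UMI and 6.64% an Il7r UMI. It made up 15.1% and 19.2% of the MPP-like cells in the young mice and 12.8% to 17.7% in the 4 oldest mice (old and very old), and these ranges overlapped. The means were 17.1% and 14.8% (exact two-sided permutation test, p = 0.333).

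The first comparison asked whether these genes were lower in MPP-like cells of old and very old mice than of young mice. UMIs were summed per mouse, given as CPM (UMIs of a gene scaled to a common total per mouse and class), and fitted with edgeR's quasi-likelihood test over all 8 mice with age group and sex as terms. Summed UMIs cannot tell fewer cells with a gene from less RNA of it per cell. All 10 genes had a fitted log2 fold change below 0. After Benjamini-Hochberg adjustment over the 12312 genes tested, 2 of the 10 were called lower, Notch1 and Ebf1, where 0.276% of all genes tested were called lower. The median log2 fold change of the 10 was −0.67, against −0.0096 for all genes tested, and 9 of the 10 had an unadjusted p below 0.05, where 11.2% of genes tested had one. Rag1 passed the filter on low counts through the young mice alone. The p-values measure the spread between these mice, 2 at each age.

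Dntt in MPP-like cells was at 307 and 333 CPM in the young male and female, 275 and 216 in the middle-aged, 216 and 230 in the old, and 234 and 143 in the very old. All 4 old and very old mice lay below both young mice. The log2 fold change was −0.66 ± 0.14 (SE), which missed the threshold (edgeR, adjusted p = 0.0556) and passed it in DESeq2 (log2 fold change −0.66, adjusted p = 0.00254).

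Flt3 was at 202 and 144 CPM in the young male and female, 110 and 115 in the middle-aged, 163 and 122 in the old, and 126 and 72.9 in the very old. The old male lay above the young female, so the groups overlapped. The log2 fold change was −0.54 ± 0.13, with an edgeR adjusted p of 0.0968 and a DESeq2 adjusted p of 0.0268. Satb1 overlapped as well, at 131 and 94.8 CPM in the young mice and 77.6 to 102 in the 4 oldest (−0.37 ± 0.12, edgeR adjusted p = 0.242).

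Notch1 was at 47.7 and 46.4 CPM in the young male and female, 29.3 and 27.9 in the middle-aged, 34.7 and 33.9 in the old, and 32.2 and 18.8 in the very old. No older mouse reached a young one. It fell by 0.68 ± 0.14 on the log2 scale (edgeR, adjusted p = 0.0415). The call was lost without the young male (adjusted p = 0.210), the young female (0.295), the old male (0.210), the old female (0.0748) or the very old female (0.0908), by the same edgeR test. It was also lost without both very old mice, the separate library series (−0.45, edgeR adjusted p = 0.170), and without the sex term (edgeR, adjusted p = 0.166).

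Ebf1 was at 6.77 and 11.2 CPM in the young male and female, 3.70 and 0.0919 in the middle-aged, 0 and 0.622 in the old, and 1.26 and 0.223 in the very old. The young mice were the 2 highest, followed by the middle-aged male. It fell by 4.27 ± 0.77 on the log2 scale (edgeR, adjusted p = 0.0219). The call rested on few cells. Of the 257 Ebf1 UMIs in MPP-like cells, 211 lay in 11 cells with 5 or more each, of which 4 came from the young male and 4 from the young female. In the old male, 0 of 1325 cells had an Ebf1 UMI, which allows a share of up to 0.226%. Of the 49 cells with an Ebf1 UMI, 26.5% also had a UMI of Cd79a, Vpreb1, Vpreb3 or Igll1, genes of the pre-B cell receptor, against 2.32% of the other MPP-like cells. Without the young female the log2 fold change was −2.98 (edgeR, adjusted p = 0.169), without the old male it was −3.65 (0.138) and without the very old female −3.89 (0.0698), and DESeq2 did not call Ebf1 (adjusted p = 0.706). Nor was it called without both very old mice (−4.82, edgeR adjusted p = 0.0793) or without the sex term (−4.21, edgeR adjusted p = 0.0852).

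The remaining 5 genes were not called. Il7r was at 8.93 and 9.69 CPM in the young mice and 1.11 to 7.71 in the 4 oldest (−1.07 ± 0.40, edgeR adjusted p = 0.334). Rag1 was at 1.44 and 1.31 CPM in the young and 0.205 to 0.506 in the 4 oldest (−2.14 ± 0.55, edgeR adjusted p = 0.113), and Rag2 at 4.15 and 5.05 against 0.891 to 3.94 (−0.82 ± 0.42, edgeR adjusted p = 0.523). Ikzf1 was at 113 and 98.1 CPM in the young and 72.3 to 90.9 in the 4 oldest (−0.38 ± 0.10, edgeR adjusted p = 0.112). Lsp1 was at 125 and 130 CPM against 96.3 to 110 (−0.27 ± 0.09, edgeR adjusted p = 0.223). In each of these 5 genes the old and very old mice lay below both young mice, as they did for Dntt, Notch1 and Ebf1. That made 8 of the 10 genes, where 8.15% of all genes tested had such an order. Rag1 is among them, and its order was fixed by the low-count filter, which it passed through the young mice alone.

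**Figure D3:**
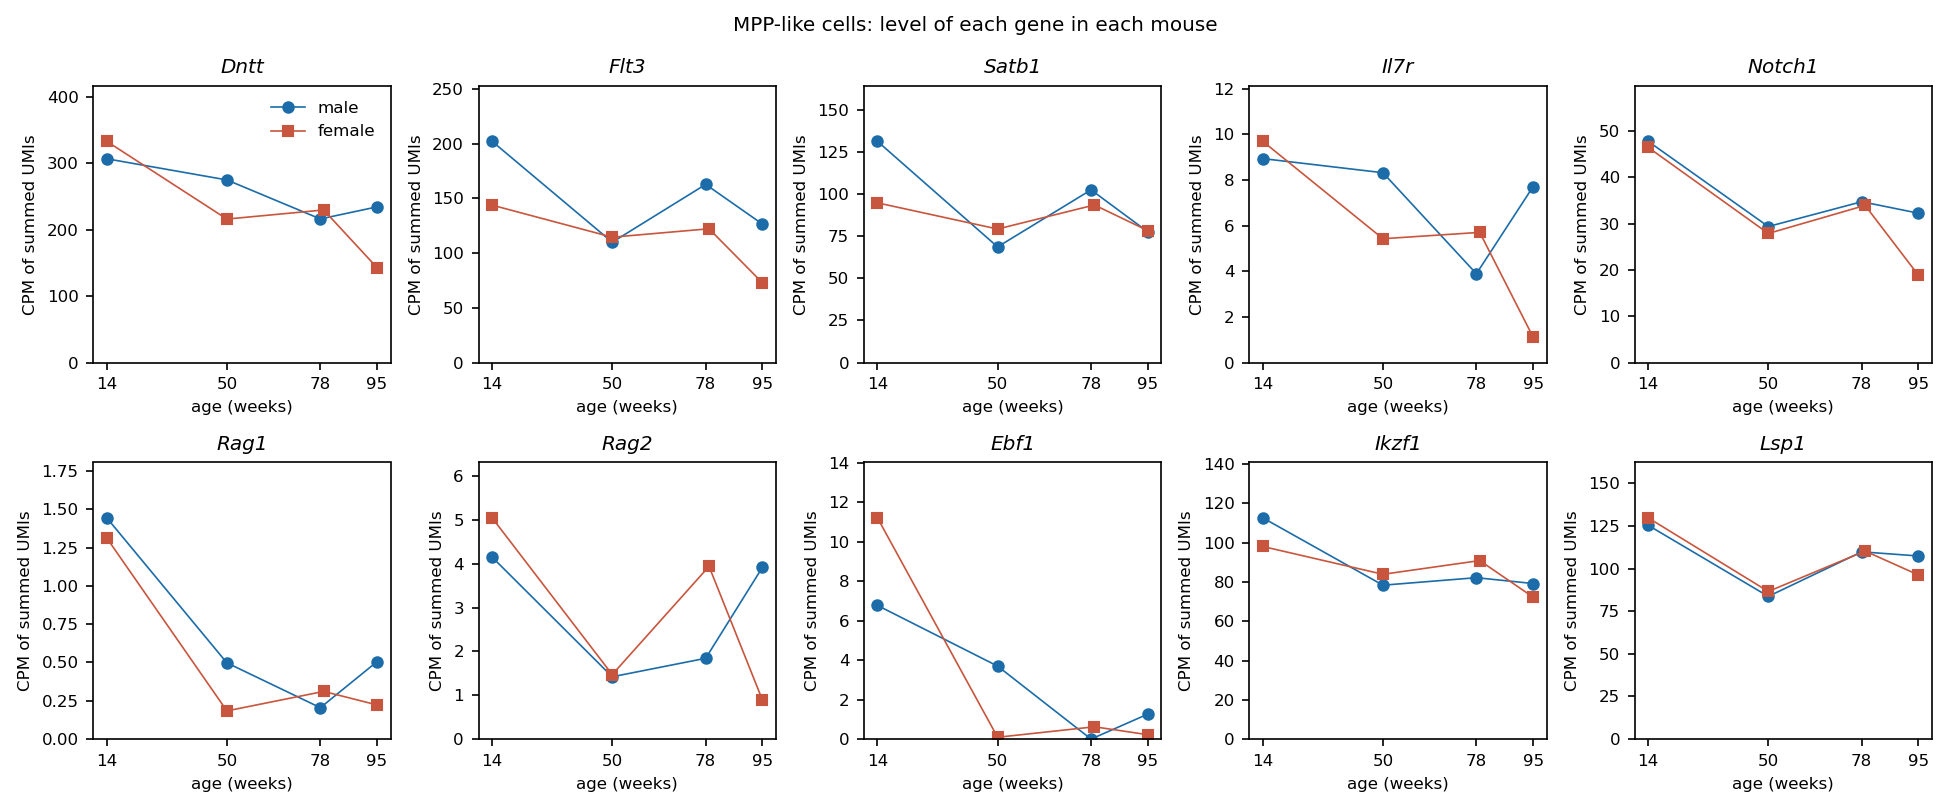
Level (CPM of summed UMIs, vertical axis from 0) of each gene in MPP-like cells of each mouse against age in weeks, males as circles and females as squares. Each point is another mouse and lines join mice of 1 sex; both middle-aged mice lie below both young mice for all 10 genes.

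Much of the difference was present at 50 weeks. Both middle-aged mice lay below both young mice for 10 of 10 genes, an order that 23% of all genes tested had. Their median log2 fold change was −0.60, against −0.0064 for all genes tested, and 9 of the 10 had an unadjusted p below 0.05, where 13.9% of genes tested had one. Rag1, fitted through the young mice alone, is in both counts, and its order was fixed by the filter. Lsp1 fell by 0.58 ± 0.10 on the log2 scale (edgeR, adjusted p = 0.0277) and was the 1 gene of the 10 called, where 0.203% of all genes tested were called lower. Lsp1 was not called without the young male, the old male or the old female. Between middle-aged and older mice, a comparison added after the data were seen, edgeR called 0 of the 10 genes, where 1.02% of genes tested were called lower, and 1 had an unadjusted p below 0.05, where 22.1% of genes tested had one. That gene was Lsp1, higher by 0.31 ± 0.09 in the older mice (edgeR, adjusted p = 0.0810). The comparisons with young mice share those 2 mice. For a slope on age in weeks, edgeR called 0 of the 10 genes, where 0.0569% of genes tested were called lower. The unadjusted p was below 0.05 for 7 of the 10 and for 7.92% of all genes tested. DESeq2 called 1, Dntt, where it called 0.138% of genes lower.

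Shares of cells gave a more regular order for Dntt. A Dntt UMI was found in 32.9% and 32.2% of thinned MPP-like cells in the young male and female, 27.8% and 26.2% in the middle-aged, 23.3% and 24.1% in the old, and 22.4% and 17.1% in the very old. The 4 age groups did not overlap after thinning. Without thinning the very old male, at 23.0%, lay above the old male and female, at 21.1% and 20.8%, so the old and very old groups overlapped. Over 8 mice the thinned share fell with age (Pearson r = −0.95, exact permutation p = 0.000397, Spearman rho = −0.96, exact permutation p = 0.000794), and the unthinned share gave r = −0.92 (exact permutation p = 0.00377). With the 2 young mice left out, whose ages lie farthest from the median, r was −0.86, and over the 6 mice of 1 library series it was −0.99 (exact permutation p = 0.0111). It was 1 of 40 such relations computed with each coefficient, for the 10 genes in MPP-like cells, HSC-like cells, the cycling cluster and all cells, and these p-values are not adjusted.

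A further 5 genes had an exact permutation p below 0.05 for Pearson's r, namely Ikzf1 (r = −0.86, rho = −0.84), Notch1 (−0.84, −0.69), Rag1 (−0.81, −0.39), Il7r (−0.80, −0.70) and Ebf1 (−0.78, −0.58). With Dntt these were 6 of the 10 genes, all with r below 0, where 5.75% of all genes tested in MPP-like cells had such a p with r below 0 and 8.07% in either direction. By the rank correlation only Ikzf1 among these 5 had an exact p below 0.05 (p = 0.0155). Without the young mice r was −0.54 for Ikzf1, −0.38 for Notch1, 0.32 for Rag1, −0.57 for Il7r and −0.042 for Ebf1, so the relations of Notch1, Rag1 and Ebf1 rested on the young mice. Flt3 shares were 50.4% and 41.1% in the young male and female, 35.8% and 34.5% in the middle-aged, 44.2% and 36.6% in the old, and 35.4% and 23.5% in the very old, with no such order (r = −0.65, exact permutation p = 0.0796). With 2 young and 4 older mice the smallest exact two-sided p for a difference of means is 0.0667, which 6 of the 10 genes reached (Dntt, Il7r, Notch1, Rag1, Ebf1 and Ikzf1), all with lower shares in the older mice. Of all genes tested, 6.65% reached it with lower shares and 9.25% in either direction. Shares of all 4 older mice lay below both young mice for 8 of the 10 genes, an order that 12.9% of all genes tested had. Rag1 is in each of these counts of shares and correlations, though it passed the low-count filter through the young mice alone. In all 8 mice 37 MPP-like cells had a Rag1 UMI.

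Markers of stem cells moved with these results. In MPP-like cells 6 of 15 HSC markers were called higher and 0 lower in old and very old mice (median log2 fold change 0.68), and their summed level was 0.0653% to 0.0657% of UMIs in young, 0.109% to 0.165% in middle-aged and 0.0873% to 0.134% in old and very old mice, with Procr among those higher (1.44 ± 0.12, edgeR adjusted p = 0.000228). In the MPP-like cells without a Procr UMI, edgeR called only Ebf1 of the 10 genes (−4.18, adjusted p = 0.0250), where 0.181% of genes tested were called lower. Notch1 there was at −0.64 ± 0.14 (edgeR, adjusted p = 0.0612), near its −0.68 in all MPP-like cells, and Dntt was at −0.56 (edgeR, adjusted p = 0.164). A Procr UMI was found in 40.1% to 71.8% of HSC-like cells of a mouse, so stem-like cells can remain among cells without one. The part of stem-like cells in the results on MPP-like cells was not tested. The MPP-like share of all cells was 18.3% and 11.6% in the young male and female and 13.8% to 19.9% in the 4 oldest mice (exact permutation p = 0.533).

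HSC-like cells were compared in the same way. Of the 10 genes, 6 had enough UMIs for a fit. The other 4 had 3 UMIs (Il7r), 1 (Rag2), 1 (Ebf1) and 0 (Rag1) in all 8 mice, and 0 of 3029 cells with a Rag1 UMI allows a share of up to 0.0990%. Dntt, Flt3, Satb1, Ikzf1 and Lsp1 were lower in old and very old mice, 5 of the 6 fitted, where 6.66% of the 10908 genes tested were called lower. Dntt had too few UMIs to count as passing the low-count filter in any of the 4 oldest mice, so its call is not read against that share.

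Flt3 in HSC-like cells was at 118 and 63.6 CPM in the young male and female, 14.9 and 16.8 in the middle-aged, 6.46 and 12.02 in the old, and 5.21 and 12.4 in the very old. The young mice stood far above all others. Flt3 fell by 3.48 ± 0.25 on the log2 scale (edgeR, adjusted p = 1.44e-08), an 11.1-fold difference. The share of thinned HSC-like cells with a Flt3 UMI was 38.1% and 23.1% in the young male and female, 6.38% and 6.19% in the middle-aged, and 2.30% to 4.82% in the 4 oldest.

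Dntt was at 10.7 and 9.62 CPM in the young male and female, 4.22 and 5.33 in the middle-aged, 2.02 and 1.94 in the old, and 0.906 and 0.443 in the very old. The 4 age groups did not overlap. It fell by 3.01 ± 0.41 on the log2 scale (edgeR, adjusted p = 3.93e-05), on 97 UMIs in 68 cells in all. To read this level against the background of free RNA, Dntt was also taken from other classes. Erythroid-like cells, which are deeper, held it at 4.12 and 3.37 CPM in the young male and female, 2.05 and 3.02 in the middle-aged, 2.12 and 5.62 in the old, and 2.27 and 0.406 in the very old. Erythroid-megakaryocyte precursor-like cells, whose median depth of 4441.5 to 7654 UMIs was nearer to that of HSC-like cells, held it at 5.13 and 3.73 CPM in the young male and female and 6.47 and 5.71 in the middle-aged, the latter above both middle-aged HSC-like values. Basophil, mast or eosinophil-like cells held it at 13.5 and 27.7 CPM in the young male and female, above both young HSC-like values. By CPM the HSC-like Dntt level was therefore not clear of what other classes held at any age, in the young mice through the last of these classes alone. The Dntt UMIs of that class, 239 over all mice, lay in 68 cells. Whether they were free RNA or RNA of those cells was not tested. Megakaryocyte-like cells held 6.37 and 6.50 CPM in the young male and female, and granulocyte progenitor-like cells 5.90 and 4.27. These lie below both young HSC-like values. As a thinned share, the young male and female HSC-like cells were at 4.75% and 2.17%. The highest mouse was at 2.09% in basophil, mast or eosinophil-like, 2.01% in erythroid-like and 2.42% in erythroid-megakaryocyte precursor-like cells. The differences of Dntt with age in HSC-like cells are not read as expression. Flt3 in the 8 mice was at 0.580 to 3.20 CPM in erythroid-like cells and 1.19 to 4.80 in erythroid-megakaryocyte precursor-like cells, below each HSC-like value. In basophil, mast or eosinophil-like cells it was at 3.47 to 8.20 CPM. That range over mice overlaps the HSC-like values of the 4 oldest, though not those of the young or middle-aged. Within each of the 8 mice the HSC-like value was the higher, at 5.21 against 4.10 CPM in the very old male and 6.46 against 3.62 in the old male. The 11.1-fold difference of Flt3 thus has a lower level near that of this class.

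Satb1 in HSC-like cells was at 35.4 and 22.2 CPM in the young male and female and at 5.43 to 7.97 in the 4 oldest, a fall by 2.13 ± 0.24 (edgeR, adjusted p = 4.09e-06). Erythroid-megakaryocyte precursor-like cells held Satb1 at 8.94 and 7.65 CPM in the young male and female, below both young HSC-like values, and at 5.36 to 14.5 in the 4 oldest, which overlaps the HSC-like values. Basophil, mast or eosinophil-like cells held it at 32.5 and 28.7 CPM in the young male and female, within the range of the young HSC-like values. The Satb1 level of the older HSC-like cells was thus not clear of other classes, and the size of its fold rests on that low level.

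Lsp1 was at 128 and 126 CPM in the young male and female and 52.7 to 89.0 in the 4 oldest, and fell by 0.86 ± 0.13 on the log2 scale (edgeR, adjusted p = 0.000109). Ikzf1 was at 75.4 and 71.1 CPM against 46.4 to 61.5, and fell by 0.51 ± 0.12 (edgeR, adjusted p = 0.00467), a call lost without the young male (edgeR, −0.38, adjusted p = 0.211) and with DESeq2 (adjusted p = 0.115). The 5 called genes were also those in which all 4 older mice lay below both young mice, an order that 17.2% of the genes tested had. Dntt, among the 5, passed the low-count filter in none of the 4 oldest. Notch1 was not called, at 19.6 and 24.3 CPM in the young mice and 15.9 to 24.03 in the 4 oldest (−0.20 ± 0.18, edgeR adjusted p = 0.511).

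**Figure D4:**
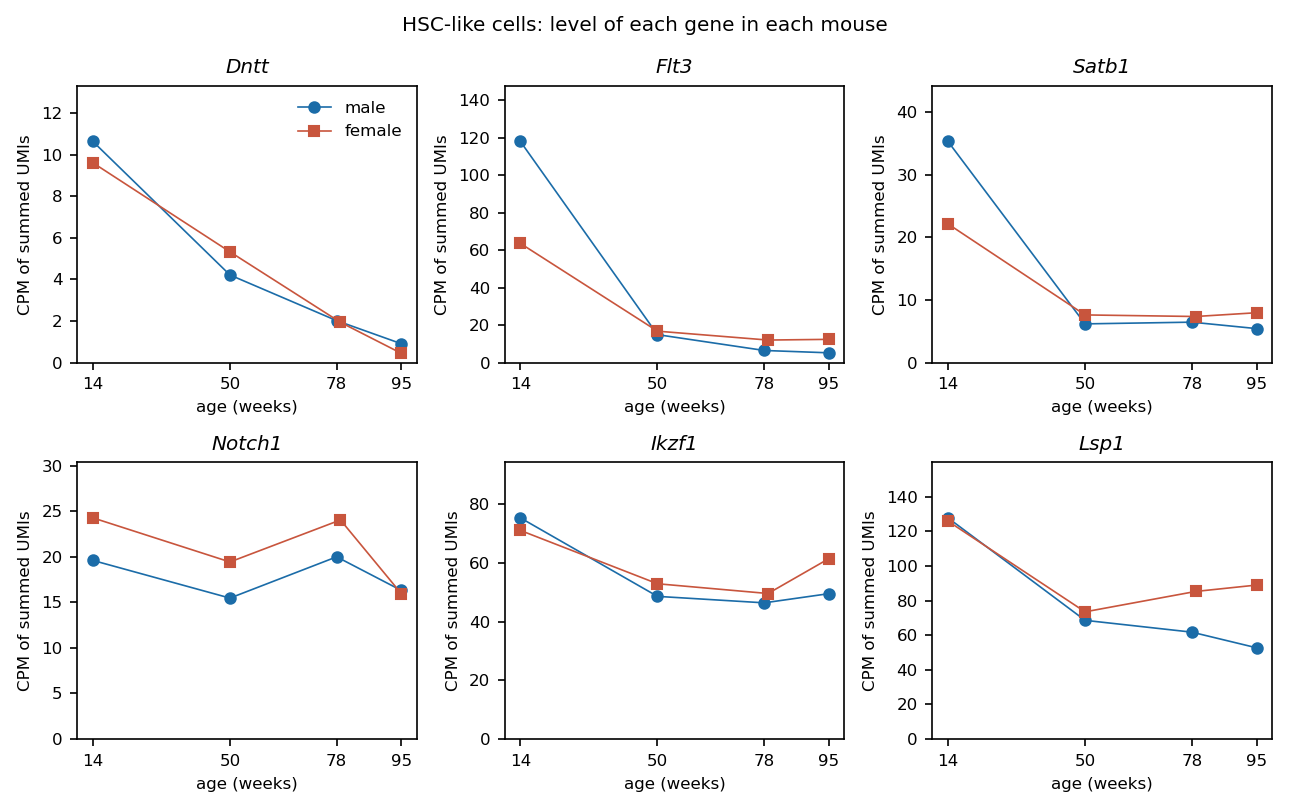
Level (CPM of summed UMIs, vertical axis from 0) of the genes with a fit in HSC-like cells of each mouse against age in weeks, males as circles and females as squares. Each point is another mouse; Flt3 and Satb1 are lower at 50 weeks than at 14 weeks in both sexes, Dntt is at 10.7 CPM or less in every mouse, a level that other classes also hold, and Notch1 overlaps between ages.

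The middle-aged mice were compared with the young and with the older mice in turn. At 50 weeks Flt3 had fallen by 2.52 ± 0.28 on the log2 scale (edgeR, adjusted p = 1.67e-05), Satb1 by 2.07 ± 0.29 (0.000174), Lsp1 by 0.83 ± 0.15 (0.00204) and Ikzf1 by 0.53 ± 0.14 (0.0289), where 1.93% of genes tested were called lower. Dntt at 50 weeks was not called (−1.10 ± 0.39, edgeR adjusted p = 0.129). Between middle-aged and older mice Dntt was the 1 gene of the 6 called lower (−1.92 ± 0.46, edgeR adjusted p = 0.0294), where 1.61% of genes were called lower, and both groups lay within the range of other classes given above. Dntt passed the low-count filter in none of the 4 oldest mice, so this call is not read against that share. Flt3 in that comparison was at −0.95 ± 0.34 (edgeR, adjusted p = 0.140, unadjusted p = 0.0112), and Satb1, Ikzf1 and Lsp1 were between −0.06 and 0.02. Whether the time course differed between genes was not tested.

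Markers moved with age in the HSC-like class too. Of 15 HSC markers, 12 were called higher (median log2 fold change 0.98), and their summed level was 0.249% of UMIs in both young mice, 0.273% to 0.424% in the middle-aged and 0.334% to 0.413% in the 4 oldest. Of 20 MPP markers, 14 were called lower and 1 higher (median −0.78), with a summed level of 0.317% to 0.380% in young and 0.216% to 0.241% in old and very old mice. HSC-like cells were 3.25% ± 0.221 of all cells in young and 6.50% ± 2.61 in old and very old mice (exact permutation p = 0.133). A Procr UMI was found in 40.1% and 56.4% of HSC-like cells of the young mice and in 56.5% to 71.8% of the 4 oldest. Among the 1931 HSC-like cells with a Procr UMI, a restriction added after the data were seen, the same 5 genes were called lower, where 3.88% of genes tested were, with Flt3 at −3.29 ± 0.27 (edgeR, adjusted p = 1.90e-07), Dntt at −2.54 ± 0.51 (0.00266) and Satb1 at −1.58 ± 0.33 (0.00342). Dntt is among the 5, though its differences in HSC-like cells are not read as expression. Whether a shift in makeup within the cells with a Procr UMI bears on the values was not tested.

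The genes were also tested outside these 2 classes. In the cycling cluster Dntt was at 250.1 and 190 CPM in the young male and female, 179 and 134 in the middle-aged, 146 and 108 in the old, and 149 and 92.1 in the very old. All 4 oldest mice lay below both young mice. Dntt fell by 0.84 ± 0.08 on the log2 scale (edgeR, adjusted p = 0.000239) and Rag2 by 1.61 ± 0.31 (edgeR, adjusted p = 0.0427). These were 2 of the 9 genes fitted there, where 0.0966% of genes tested were called lower. In the 6 other named classes with enough cells, 2 calls were made, both of Dntt and both absent with DESeq2. Dntt was called lower in basophil, mast or eosinophil-like cells (−2.48 ± 0.35, edgeR adjusted p = 0.0358), where it was the 1 gene of 10409 called lower (0.00961%). It was also called lower in megakaryocyte-like cells (−1.15 ± 0.30, edgeR adjusted p = 0.0488, where 0.930% of genes were). The shares of cells with a Dntt UMI in these 2 classes were close to that of erythroid-like cells. By CPM the young male and female basophil, mast or eosinophil-like cells were higher, at 13.5 and 27.7 against 4.12 and 3.37 in erythroid-like cells.

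Within the MPP-like class, 4 subclusters had enough cells for a fit. In the largest, 3826 cells with little Dntt, Dntt was at 68.7 and 68.4 CPM in the young male and female and at 21.5 to 32.4 in the 4 oldest mice, and fell by 1.42 ± 0.14 on the log2 scale (edgeR, adjusted p = 7.58e-05). Flt3 fell there by 0.66 ± 0.12 (edgeR, adjusted p = 0.0161) and Satb1 by 0.70 ± 0.13 (0.0188), where 0.246% of genes were called lower. The next in size, 3558 cells, held mostly shallow cells, and 403 of them were deep enough to be thinned. The 3558 cells lie in a finer cluster of 3560 with a median of 2556.5 UMIs, whose leading genes include Malat1 and mitochondrial genes. Flt3 in this subcluster was at 319 and 234 CPM in the young male and female and at 95.5 to 192 in the 4 oldest mice. It was the 1 gene called (−0.84 ± 0.17, edgeR adjusted p = 0.00613, where 0.209% of genes were called lower). Whether the low depth of these cells bears on that call was not tested. Dntt there was at 107 and 58.8 CPM in the young and 28.8 to 67.7 in the 4 oldest, which overlap (−0.60 ± 0.19, edgeR adjusted p = 0.191). In the subcluster with most Dntt, Dntt was at 1075 and 1078 CPM in the young and 708 to 950.0 in the 4 oldest mice (−0.38 ± 0.11, edgeR adjusted p = 0.466). Satb1 there was at 0.05 ± 0.13 and Flt3 at −0.18 ± 0.12, and Ebf1 was the 1 gene called (−4.93 ± 0.54, edgeR adjusted p = 0.000478, where 0.0792% of genes were called lower). Ebf1 was at 30.8 and 30.03 CPM in the young male and female and at most 1.803 in the 4 oldest. Few cells carried it, 2.02% of this subcluster without thinning. Whether any of the 4 oldest passed the low-count filter there was not examined, so the call is not read against that share. In the smallest fitted, 612 cells, edgeR called 0 of the 6 genes tested, where 0.0383% of genes were called lower, and 4 of the 6 had an unadjusted p below 0.05, where 5.49% of genes had one. The difference between the subclusters was not tested.

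Summed over all cells of a mouse, edgeR called 0 of the 10 genes, where 0.104% of the 15361 genes tested were called lower. The unadjusted p was below 0.05 for 7 of the 10 and for 11.7% of all genes tested. DESeq2 called 1, Dntt, where it called 0.397% of genes lower. The all-cell sums move with the makeup of each library.

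**Figure D5:**
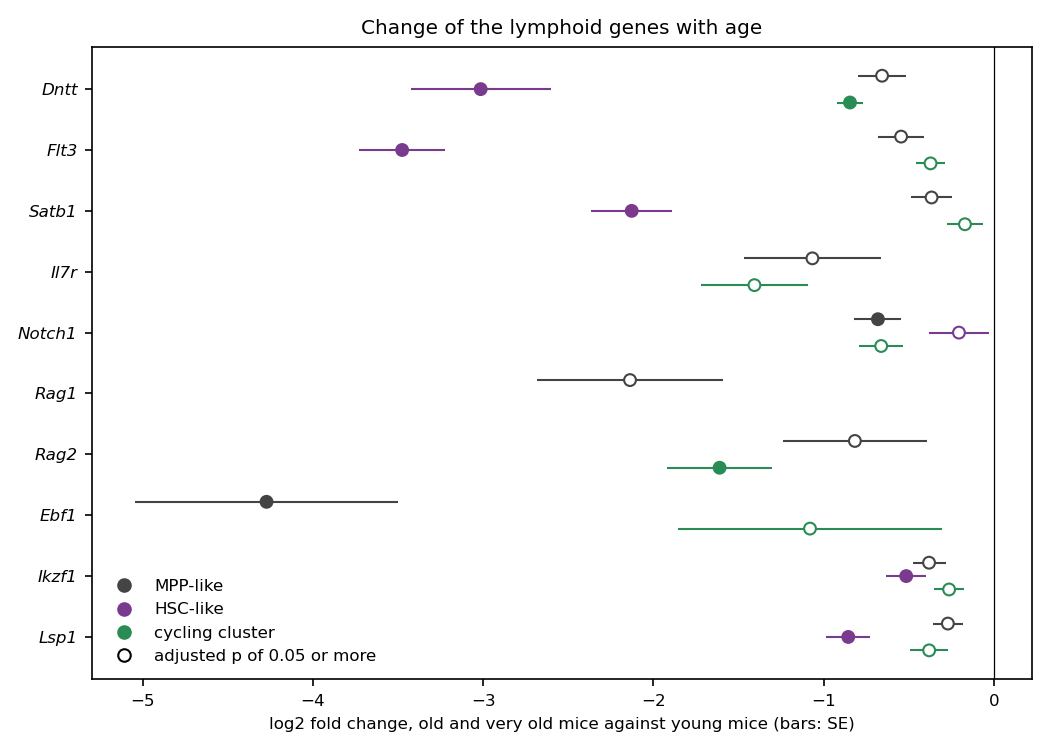
Log2 fold change (horizontal axis, bars are SE) of each gene in old and very old against young mice, in MPP-like cells, HSC-like cells and the cycling cluster, with open circles for an edgeR adjusted p of 0.05 or more. All plotted values lie below 0, and Dntt, Flt3, Satb1, Lsp1 and Ikzf1 are lowest in HSC-like cells, where the Dntt difference is not read as expression. Differences between the classes were not tested.

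Other genes of lymphoid specification were read from a list of 67, of which 55 could be tested in MPP-like cells. In old and very old mice 6 were called lower and 1 higher, where 0.276% of all genes tested were called lower and 0.772% higher, and the median log2 fold change of the 55 was −0.07. Of the 6 lower, Vpreb3, Cd79a and Igll1 passed the low-count filter in no old or very old mouse, so they had to differ to be fitted and their calls are not read against that share. The other 3 were Vpreb1, Ighm and Ccr9. Of the 17 transcription factors and 8 Notch pathway genes tested, edgeR called 0 lower, with an unadjusted p below 0.05 in either direction for 4 and 1 of them, and DESeq2 called 1 lower, Irf8. The 7 calls depended on the processing. They became 3 in the fit with no sex term, 2 with the coarser clusters (resolution 0.4), 0 where Harmony was not used, and 3 without the young male, the young female or the old male. On leaving out each mouse in turn Vpreb1 and Vpreb3 stayed called in 8 of 8 fits, Ighm in 7, Gata3 in 5, Cd79a in 4, Ccr9 in 3 and Igll1 in 2.

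Vpreb3, a chain that assists the pre-B cell receptor, was at 7.76 and 9.29 CPM in the young male and female, 2.13 and 0 in the middle-aged and at most 0.205 in the 4 oldest (−7.90 ± 0.99, edgeR adjusted p = 0.00341). Cd79a, a signalling chain of the B cell receptor, was at 2.71 and 3.63 CPM in the young and at most 0.307 in the 4 oldest (−4.48 ± 0.75, edgeR adjusted p = 0.0143). Igll1, part of the surrogate light chain, was at 2.80 and 1.62 CPM against at most 0.379 (−3.76 ± 0.69, edgeR adjusted p = 0.0233). DESeq2 did not call Vpreb3 (adjusted p = 0.489).

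Vpreb1, the other surrogate light chain gene, was at 10.3 and 9.89 CPM in the young male and female and 2.07 to 4.10 in the 4 oldest, and fell by 1.86 ± 0.22 on the log2 scale (edgeR, adjusted p = 0.00199). It has a near-identical copy, Vpreb2, so its count is uncertain. Ighm, the heavy chain constant region, was at 164 and 143 CPM against 49.1 to 102, and fell by 0.92 ± 0.13 (edgeR, adjusted p = 0.00450). Ccr9, a chemokine receptor of cells that enter the thymus, was at 25.6 and 9.49 CPM in the young and 2.34 to 11.8 in the 4 oldest, which overlap (−1.46 ± 0.30, edgeR adjusted p = 0.0440), and DESeq2 did not call it (adjusted p = 0.555). Gata3, a transcription factor of T and innate lymphoid cells that stem cells also express, was the gene called higher, at 6.41 and 5.96 CPM in the young and 11.7 to 13.03 in the 4 oldest (0.99 ± 0.16, edgeR adjusted p = 0.0116).

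The genes most like Dntt over the 26 clusters, by Pearson correlation of log2(CPM + 1) among 14282 genes with the members left out, were Sstr2 (r = 0.89), Rasal1 (0.85), Slc18a1 (0.83), Depp1 (0.82) and Gimap7 (0.81). Of the members, Rag2 (0.86), Ebf1 (0.76) and Il7r (0.74) were closer to Dntt than Satb1 (0.66), Flt3 (0.59), Rag1 (0.58), Notch1 (0.54), Lsp1 (0.37) and Ikzf1 (0.15). The clusters share libraries and differ in depth, and these correlations are a description.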

How the data were processed

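The authors deposited UMI counts per gene and cell for each library (10x Chromium, Cell Ranger 6.0.0 in the file headers, build mm10), 1 mouse each. Cells with 200 or more genes were kept. From 2000 variable genes, without the 10 genes and sex-linked genes, 30 principal components were corrected with Harmony (theta 1, rewritten here) and clustered with Leiden (20 neighbours, resolution 0.8; scanpy 1.11.5, leidenalg 0.10.2). A cluster was named where 3 or more markers of a class were among its 50 leading genes. Scrublet called 0.0581% to 2.64% of cells as doublets (under 0.5% in 5 of 8 libraries), and none were removed. Counts summed per mouse and class were tested with edgeR 4.0.16 (TMM, filterByExpr, quasi-likelihood, age group and sex) with Benjamini-Hochberg adjustment over all genes tested and a threshold of 0.05. DESeq2 1.42.0, other clusterings, filters and left-out mice were alternatives. In simulated MPP-like counts of 12153 genes, the edgeR step recovered 76% of 50 genes lowered to a fold of 0.5 and made 7 false calls. Every simulated gene had the same dispersion and no sex effect, so the 76% need not hold for genes that vary more between mice. Shares are expected values after thinning. The genes named are all 10 members, the called genes of the lymphoid list and the 5 genes most like Dntt over clusters. Members and lists were chosen with earlier results of these data known, so no p is adjusted over them alone. Gene positions are from GENCODE vM21 (32235 of 32285 IDs matched).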

Additional observations from a re-analysis of the deposited data

Results flagged for a closer look

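Notch1 in MPP-like cells of the very old female was at 18.8 CPM, far below the other 3 old and very old mice at 32.2 to 34.7 CPM. Its gap to the nearest of them was 0.844 of the range of the 4 mice, above Dixon's 95% critical value. It was 1 of 16 groups of 4 examined, and chance marks about 1 in 20 of them.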

How the results depend on the processing

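All 10 genes had a log2 fold change below 0 in MPP-like cells under every alternative that gave a value, and in HSC-like cells the fold changes were below 0 except for Notch1 without the very old mice (0.023) and in cells with a Procr UMI (0.0099). In HSC-like cells Dntt, Flt3, Satb1 and Lsp1 passed the threshold in 19 of 19 alternatives and Ikzf1 in 17. The Dntt calls there are not read as expression, since its CPM was not clear of other classes. In MPP-like cells Ebf1 passed in 14 of 20, Notch1 in 8, Dntt in 7 and Flt3 in 5, and the calls depended on the settings. The count of members called there, 2 as reported, was 8 with no filter on low counts, 3 with DESeq2, without the lymphoid list in clustering or with the stricter cell filter, 1 without Harmony, at a resolution of 0.4, without the low-depth cluster or without cells with a Procr UMI, and 0 without the sex term or without the very old mice, and leaving out 1 mouse gave 0 (young female, old male or very old female) to 4 (either middle-aged mouse or the very old male). For middle-aged against young mice the count of 1 became 7 with no filter, 2 without Harmony, at resolutions of 0.4 and 1.6 and with the stricter cell filter, and 0 without the sex term or the lymphoid list, with 0 to 4 on leaving out 1 mouse. For the slope the count of 0 became 1 with DESeq2 or without the lymphoid list and 2 with no filter, with 0 to 1 on leaving out 1 mouse. For all cells it became 1 with DESeq2 and 0 to 1 on leaving out 1 mouse. In the 6 other named classes the count of 2 became 0 with DESeq2 or without the sex term, 6 with no filter, and 1 without the very old mice, without Harmony, at a resolution of 1.6 or with the stricter filter, with 0 to 2 on leaving out 1 mouse. For the lymphoid list the count of 7 became 13 with no filter, 4 without the very old mice, 3 without the sex term, 2 at a resolution of 0.4 and 0 without Harmony, with 3 (either young mouse or the old male) to 8 on leaving out 1 mouse. The 8 genes whose shares lay below both young mice in all older mice (an order of 12.9% of all genes tested) became 5 at a resolution of 0.4, with 8 to 10 on leaving out 1 mouse, and the 6 correlations with an exact p below 0.05 became 2 without either young mouse, with 2 to 7 on leaving out 1 mouse. The difference in the MPP-like share of cells, 1.83 percentage points, was −0.29 without Harmony and ranged from −1.49 (without the young female) to 5.15 on leaving out 1 mouse. The causes of these shifts were not tested. The replicate numbers stand for sex, which is a term of the fit as reported, so the fit without the sex term is also the fit without a replicate block (0 members called in MPP-like cells). Rag1, Rag2, Ebf1 and Il7r had too few UMIs for more than large differences to be seen, and counting intervals were not needed for values compared over mice.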
